A study of Mus musculus with 9 samples.

Results

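The genes described here are the receptors of the epidermal growth factor (EGF) family and the ligands that bind the first of them. They were chosen by symbol: *Egfr*, *Erbb2*, *Erbb3* and *Erbb4* for the receptors, and *Areg*, *Ereg*, *Hbegf*, *Tgfa*, *Btc* and *Egf* for the ligands. Of these 10 genes, 9 have a row in the table of 19481 genes, and all 9 passed the filter on low counts that left 14725 genes for testing. *Erbb4* has no row in the table analysed here, so no value can be given for it. The RNA came from 9 tumors of KLN205, a mouse lung squamous carcinoma line, grown under the skin of young adult female DBA/2 mice with an intact immune system. Of the tumors, 3 carried a scrambled shRNA (sh Control) and 3 each carried 1 of 2 shRNAs against *Tmprss11b*, a transmembrane serine protease, named sh2 and sh3 in the labels and shRNA1 and shRNA2 by the study. In all groups the shRNA was inducible, doxycycline was given in the drinking water from a mean tumor volume of 100 mm3, and tumors were resected on day 50. Whole pieces of tumor were sequenced, host cells included, so for every value below fewer cells of a type and less RNA per cell cannot be told apart.

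ErbB receptors are tyrosine kinases that pair when a ligand binds. EGFR binds the ligands described here, ERBB2 binds no known ligand and serves as the partner of the others, and ERBB3 binds neuregulins and has little kinase activity of its own. The ligands are made as membrane proteins and are cut from the cell surface by metalloproteases, and the activated receptors signal through RAS, RAF, MEK and ERK and through PI3K and AKT. In squamous epithelia this family drives growth and wound repair, and several of its ligands are themselves ERK-responsive genes. The study asked what loss of *Tmprss11b* does to these tumors, including to ERK signaling, and the comparisons below ask whether the mRNA of this receptor system differed with it.

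Gene counts totalled 20653219 to 24047784 per tumor, and levels are given as CPM, counts scaled to the normalized total of the tumor; 3 counts corresponded to 0.125 to 0.145 CPM. The targeted gene, listed as *Tmprss11bnl*, had 18, 51 and 42 counts in the control tumors, 7, 2 and 5 with sh2 and 10, 4 and 5 with sh3. No gene passed a false discovery rate (FDR) of 0.05 in edgeR's quasi-likelihood test in any of the 4 comparisons, while 518 genes (sh2 against control), 976 (sh3 against control), 602 (mean of both against control) and 1057 (sh3 against sh2) had an unadjusted p under 0.05. DESeq2's Wald test called 2, 41, 9 and 48 genes in the same order, none of them a member of this family. Epithelial markers were plentiful, with *Epcam* between 645.5 and 1151 CPM, but the squamous keratin *Krt5* was at 87.4 CPM in control tumor 1 and at most 5.02 CPM in the others, and the epidermal markers *Krt1*, *Krt10*, *Lor* and *Krt77* summed to 108 CPM in that tumor and 4.10 to 7.06 CPM in the other 8. The part of skin in the values of control tumor 1 was not tested. Tumors, not cells, are the replicates, and where both shRNAs are set against the control they share its 3 tumors.

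Levels of different genes were compared per transcript length, as the TPM values deposited by the authors, which scale counts by transcript length and library total. *Hbegf* was the most abundant member at 92.7 ± 44.3 TPM (SD, n = 9 tumors), followed by *Areg* at 76.3 ± 42.3 TPM, *Erbb2* at 58.6 ± 13.7 TPM, *Tgfa* at 45.0 ± 12.3 TPM, *Ereg* at 37.5 ± 14.7 TPM and *Erbb3* at 32.4 ± 9.90 TPM. *Btc* was lower at 13.6 ± 3.62 TPM, *Egfr* was at 9.65 ± 4.66 TPM, and *Egf* itself was the lowest at 0.991 ± 0.539 TPM. The order of the upper genes was not the same in every tumor: *Hbegf* was above *Areg* in 8 of 9 tumors, *Areg* above *Erbb2* in only 5 of 9, and *Ereg* above *Erbb3* in 7 of 9. *Erbb3* was above *Btc*, and *Egfr* above *Egf*, in 9 of 9. Among all rows of the table, *Hbegf* stood at percentile 88.9, *Egfr* at percentile 47.6 and *Egf* at percentile 28.6 of mean TPM. *Erbb2* made up between 54.5% and 65.9% of the summed TPM of the 3 measured receptors and *Egfr* between 6.87% and 14.5%, so that *Egfr* was the least abundant of the 3 in every tumor. The plot of TPM by gene shows this order and the overlap of neighbours.

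**Figure D1:**
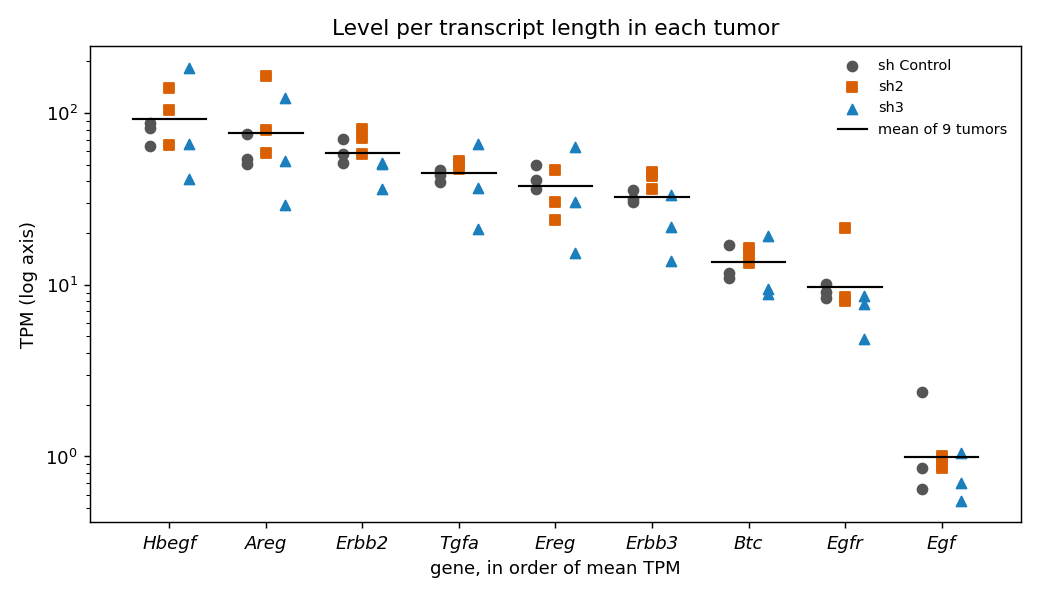
Level of each gene in TPM (log axis) in each of the 9 tumors, in order of the mean, with sh Control, sh2 and sh3 tumors as separate symbols and the mean of 9 tumors as a bar. *Hbegf*, *Areg* and *Erbb2* lie at the top with overlapping values, and *Egf* lies at or below 2.36 TPM in every tumor.

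*Egfr*, the receptor for the ligands described here, measured 25.2, 23.1 and 26.3 CPM in control tumors 1 to 3, 21.6, 62.9 and 23.7 CPM with sh2 and 23.6, 16.7 and 23.7 CPM with sh3. All tumors but 2 lay within a narrow band; sh2 tumor 2 was far above it and sh3 tumor 2 below it, and both shRNA groups overlapped the control. Its log2 fold change was 0.54 with sh2 against control (95% interval −0.31 to 1.38, FDR = 0.999, edgeR) and −0.22 with sh3 (−1.07 to 0.63, FDR = 0.926). Without sh2 tumor 2 the value for sh2 was −0.13, so 1 tumor set its direction.

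*Erbb2*, the receptor without a ligand of its own, measured 150.6, 108 and 117 CPM in control tumors 1 to 3, 120.5, 183 and 156 CPM with sh2 and 107, 97.4 and 122 CPM with sh3. Control tumor 1, the highest of the control tumors, lay above the lowest sh2 tumor, and the groups overlapped in each comparison. Its log2 fold change was 0.29 with sh2 (95% interval −0.14 to 0.72, FDR = 0.999, edgeR) and −0.20 with sh3 (−0.63 to 0.22, FDR = 0.854), the narrowest intervals of the 9 members. Without control tumor 1 these fold changes were 0.45 and −0.06.

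*Erbb3*, the neuregulin receptor, measured 54.4, 52.1 and 58.3 CPM in control tumors 1 to 3, 60.2, 83.6 and 75.4 CPM with sh2 and 57.2, 30.1 and 41.5 CPM with sh3. The 3 sh2 tumors were each above the 3 control tumors, and no other member was clear of the control tumors with sh2; among all genes tested, 5.56% were likewise higher in all sh2 tumors. Its log2 fold change was 0.41 with sh2 (95% interval −0.10 to 0.92, FDR = 0.999, edgeR; exact permutation P = 0.1, the smallest that 3 tumors against 3 allow) and −0.36 with sh3 (−0.86 to 0.15, FDR = 0.789), where sh3 tumor 1 lay among the control tumors.

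The 2 shRNAs were also set against each other, to see whether they moved the family alike. *Erbb3* was lower in every sh3 tumor than in any sh2 tumor, as were 4.62% of all genes tested, with a log2 fold change of −0.77 (95% interval −1.28 to −0.26, FDR = 0.673, edgeR). *Erbb2* was lower with sh3 than with sh2 by a log2 fold change of −0.50 (95% interval −0.93 to −0.07, FDR = 0.673) and *Egfr* by −0.76 (−1.61 to 0.10, FDR = 0.675), both with overlapping tumors. *Erbb2* and *Erbb3* were the only 2 of 9 members with an unadjusted p under 0.05 in this comparison, both lower with sh3, against 3.66% of all genes lower at that level, and none of the 3 receptors passed the FDR threshold. Leaving out any 1 tumor kept the *Erbb3* difference between −1.03 and −0.57.

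Epithelial marker levels were set beside the receptors. The 7 epithelial markers (*Epcam*, *Cdh1*, *Krt8*, *Krt18*, *Krt19*, *Krt14* and *Krt6a*) were all detected and summed to 4352, 4851 and 3272 CPM in control tumors, 3642, 7427 and 5823 CPM with sh2 and 3742, 3885 and 4295 CPM with sh3. The sh2 tumors 2 and 3 were above every other tumor in this sum, and these were also the 2 with the highest *Erbb2* and *Erbb3*. The order was not kept in every tumor: control tumor 2 had the highest sum of the control tumors and their lowest *Egfr*, *Erbb2* and *Erbb3*, and sh3 tumor 2, lowest of all 9 in the 3 receptors, had a sum within the control range. The keratins *Krt14* and *Krt6a* did not share the higher levels with sh2. *Krt14* ran from 59.9 to 107.5 CPM with sh2 and from 71.7 to 389.7 CPM in control tumors. *Krt6a* ran from 104.3 to 144.8 CPM and from 115.7 to 291.9 CPM, so both overlapped. Given per 1000 CPM of these markers, a scale added after the values were seen, *Erbb3* was between 10.7 and 17.8 in the control tumors, 11.3 and 16.5 with sh2 and 7.74 and 15.3 with sh3, and the groups overlapped in each comparison. On this scale the log2 difference between sh3 and sh2 was −0.36 for *Erbb3* (exact permutation P = 0.4), −0.04 for *Erbb2* (exact permutation P = 0.9) and −0.15 for *Egfr* (exact permutation P = 0.8), with 3 tumors in each group. Between sh2 and control it was 0.003 for *Erbb3*. The part of epithelial content in the receptor values was not tested further.

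**Figure D2:**
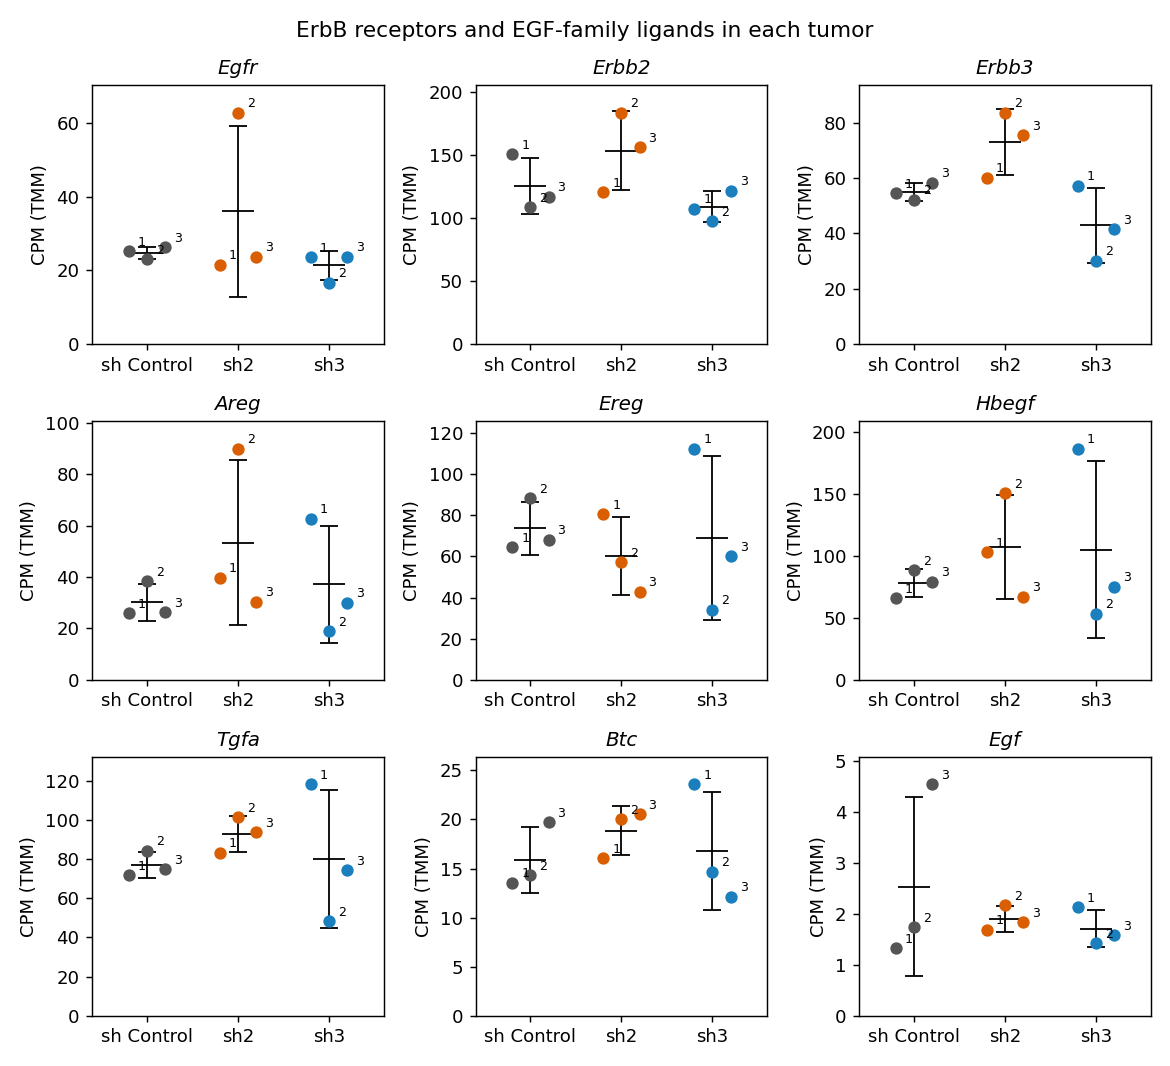
CPM (TMM-scaled) of each gene in each tumor, from 0, with the group mean and SD as bars and the replicate number beside each point. The sh2 tumors lie above the control tumors for *Erbb3* alone, and sh3 tumor 1 and sh2 tumor 2 carry most of the upper values.

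Of the ligands, *Areg* (amphiregulin) had the widest spread, at 25.9, 38.3 and 26.2 CPM in control tumors, 39.7, 90.0 and 30.4 CPM with sh2 and 62.6, 18.8 and 29.9 CPM with sh3. Both shRNA groups overlapped the control, and the highest and lowest tumors of all 9 were both among the 6 shRNA tumors, 4.79-fold apart. The log2 fold change was 0.82 with sh2 (95% interval −0.30 to 1.94, FDR = 0.999, edgeR) and 0.30 with sh3 (−0.81 to 1.42, FDR = 0.922). Without sh2 tumor 2 the first value was 0.23, and without sh3 tumor 1 the second was −0.30.

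*Hbegf* (heparin-binding EGF-like growth factor) measured 65.9, 88.5 and 79.1 CPM in control tumors 1 to 3, 102.6, 150.4 and 67.0 CPM with sh2 and 186, 53.1 and 74.9 CPM with sh3. With each shRNA 1 or 2 tumors lay above the control range and the others within or below it. The log2 fold changes were 0.46 with sh2 (95% interval −0.56 to 1.47, FDR = 0.999, edgeR) and 0.43 with sh3 (−0.58 to 1.44, FDR = 0.877), and without sh3 tumor 1 the latter was −0.28.

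*Ereg* (epiregulin) measured 64.5, 88.2 and 68.0 CPM in control tumors 1 to 3, 80.5, 57.2 and 42.8 CPM with sh2 and 112, 34.1 and 60.1 CPM with sh3. Values above and below the control range occurred with sh3, and the groups overlapped. Its log2 fold change was −0.29 with sh2 (95% interval −1.18 to 0.60, FDR = 0.999, edgeR) and −0.10 with sh3 (−0.99 to 0.80, FDR = 0.973).

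*Tgfa* (transforming growth factor alpha) measured 71.7, 84.3 and 74.8 CPM in control tumors 1 to 3, 83.2, 101.5 and 93.7 CPM with sh2 and 118, 48.4 and 74.3 CPM with sh3. The lowest sh2 tumor lay just under the highest control tumor. *Btc* (betacellulin) measured 13.6, 14.3 and 19.7 CPM in control tumors 1 to 3, 16.1, 20.1 and 20.5 CPM with sh2 and 23.6, 14.7 and 12.1 CPM with sh3. Both genes overlapped between the groups, and their log2 fold changes were 0.27 and 0.25 with sh2 and 0.06 and 0.08 with sh3, with 95% intervals that lay within −0.56 and 0.89 for *Tgfa* and within −0.53 and 0.86 for *Btc*.

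*Egf* had the lowest CPM of the 9 members, at 1.32, 1.74 and 4.54 CPM in control tumors (31, 42 and 111 counts), 1.69, 2.17 and 1.84 CPM with sh2 and 2.13, 1.42 and 1.58 CPM with sh3. Only control tumor 3 stood apart. That tumor also had the highest sum of 5 skeletal muscle markers, 2649 CPM against 3.38 to 873.7 CPM in the others, and the part of muscle in its *Egf* was not tested. The log2 fold change was −0.42 with sh2 (95% interval −1.49 to 0.66, FDR = 0.999, edgeR) and −0.57 with sh3 (−1.64 to 0.51, FDR = 0.837), and without control tumor 3 these were 0.31 and 0.15.

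**Figure D3:**
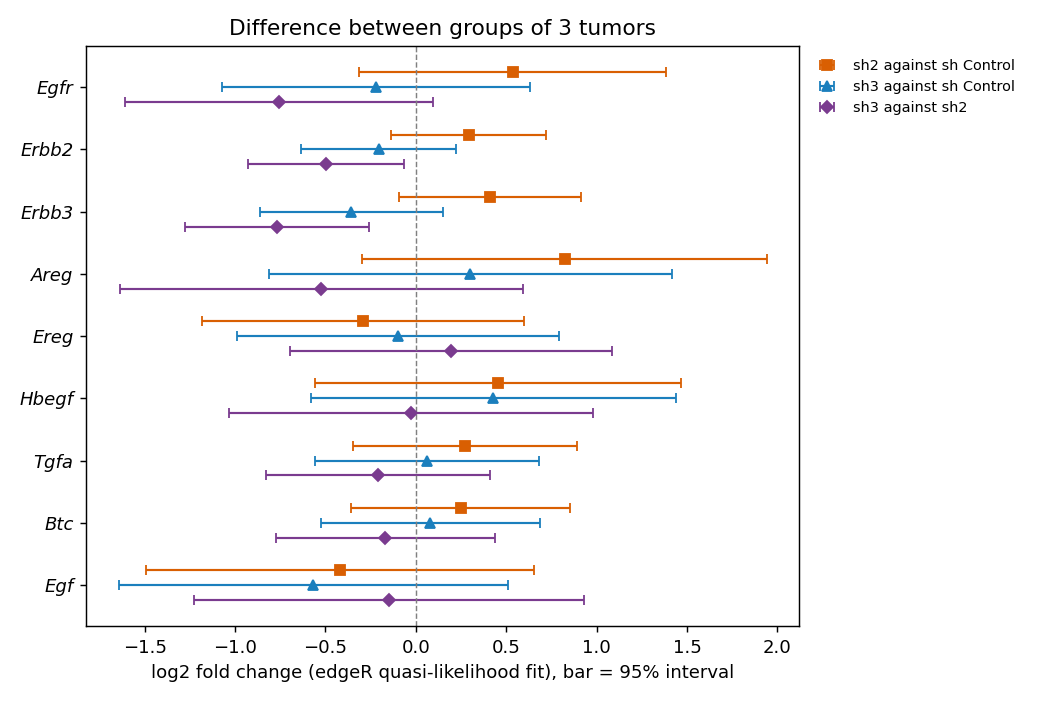
Log2 fold change of each gene for sh2 against sh Control, sh3 against sh Control and sh3 against sh2 (3 tumors per group), with 95% intervals from edgeR's quasi-likelihood fit. All intervals against the control include 0, and only those of *Erbb2* and *Erbb3* for sh3 against sh2 lie wholly below 0.

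Across the family, 7 of 9 members had a log2 fold change above 0 with sh2 (median 0.29) and 4 of 9 with sh3 (median −0.10), where the medians of all genes tested were 0.009 and 0.034. Of 14725 genes tested, 7625 were above 0 with sh2 and 8083 with sh3. With sh3 and with the mean of both shRNAs no member was clear of the control tumors, which 12.2% and 2.17% of all genes were, and with sh2 it was *Erbb3* alone, against 11.4% of all genes. None of the 9 had an unadjusted p under 0.05 against the control with either shRNA or with their mean; 3.52%, 6.63% and 4.09% of all genes did. In the mean of both shRNAs the log2 fold changes ran from −0.49 for *Egf* to 0.56 for *Areg*, and the 3 receptors lay between 0.03 and 0.16.

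Differences between single tumors were larger than those between groups, and they fell in a few tumors. The tumor with sh2 numbered 2 had the highest *Egfr*, *Erbb2*, *Erbb3* and *Areg* of all 9, and sh3 tumor 1 had the highest *Ereg*, *Hbegf*, *Tgfa* and *Btc*; of all genes tested, 14.9% and 22.0% were highest in these tumors. In sh3 tumor 2, 7 of 9 members were at their lowest, the exceptions being *Btc* and *Egf*, while 17.2% of all genes were lowest there. The summed TPM of the 6 ligands was 202.5, 272 and 239.8 in the control tumors, 292, 403 and 216 with sh2 and 457, 117 and 196 with sh3, and that of the 3 receptors was 111, 89.8 and 103.6, then 102, 148 and 124, then 92.3, 54.7 and 80.5. Both tumors with the most ligand mRNA and the tumor with the least carried an shRNA against *Tmprss11b*, as did 6 of the 9 tumors.

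Macrophage marker levels also differed between these tumors. The sum of 5 macrophage markers (*Csf1r*, *Cd68*, *Mrc1*, *C1qa* and *C1qb*; *Adgre1* has no row in the table) was 2107, 1881 and 2007 CPM in control tumors, 1854, 1118 and 1786 CPM with sh2 and 764.8, 3783 and 2442 CPM with sh3. The 2 tumors with the lowest sums were sh3 tumor 1 and sh2 tumor 2, each of them highest for 4 of 9 members. Not all members were high there: *Erbb2* in sh3 tumor 1 (107 CPM) and *Ereg* in sh2 tumor 2 (57.2 CPM) lay below the control tumors. The tumor with the highest sum was sh3 tumor 2, where 7 of 9 members were lowest. The epithelial marker sum of sh3 tumor 2, 3885 CPM, lay within the range of the control tumors. Fibroblast markers (7 of 7 detected) summed to 3116 to 5456 CPM in control tumors, 2423 to 4038 CPM with sh2 and 1315 to 2311 CPM with sh3. The part of macrophages and fibroblasts in the family's levels was not tested.

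**Figure D4:**
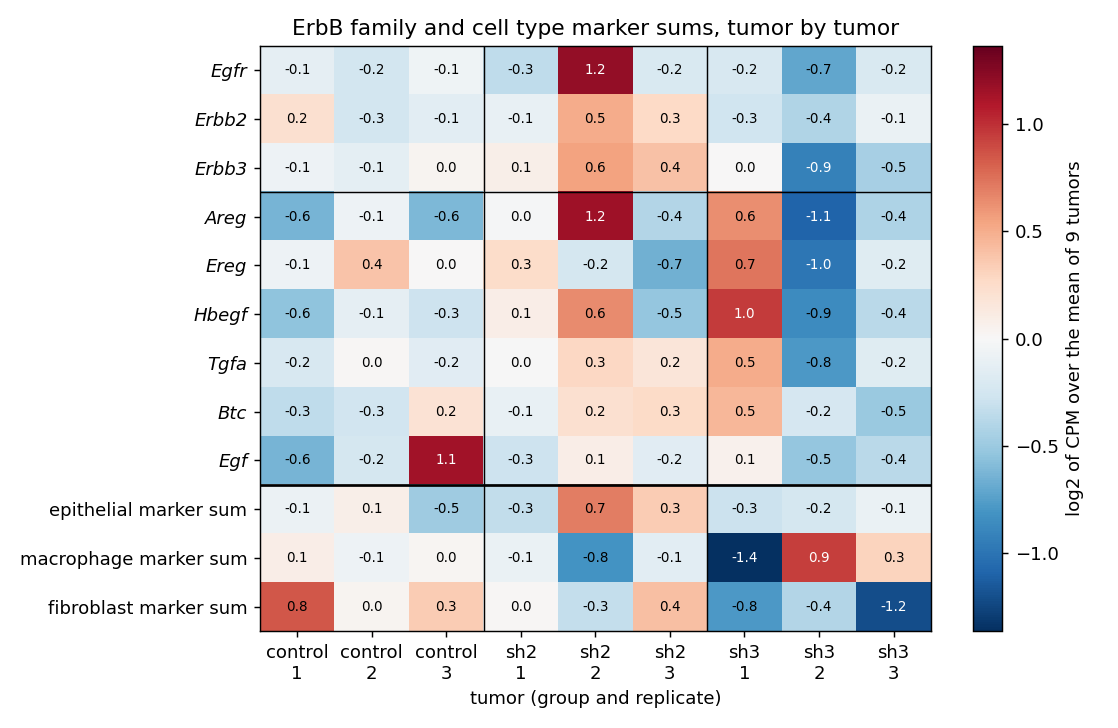
Log2 of CPM over the mean of the 9 tumors for each gene, and for the summed epithelial, macrophage and fibroblast markers, in each tumor; red is above and blue below the mean. The columns of sh2 tumor 2 and sh3 tumor 1 are mostly red for the family and blue for the macrophage sum, and that of sh3 tumor 2 is blue for the family and red for the macrophage sum.

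Promoter sequences were at hand for 7 of the 10 genes, and none for *Ereg*, *Erbb3* and *Hbegf*. Of the 7, 5 are shown: *Areg*, *Egfr* and *Erbb2*, highest in sh2 tumor 2, and *Tgfa* and *Btc*, highest in sh3 tumor 1. The part of these sequences in the levels was not tested. Each run is the 250 bases before the start site on the gene's strand, 5′ to 3′, from RefSeq in build GRCm38.p6. For *Tgfa* the start site of the table, 86195222, lies inside the gene as RefSeq places it, from 86195038 on, so 184 of its 250 bases are within the gene. Capitals mark matches on either strand to the cAMP response element (CRE, TGACGTCA), the AP-1 site (TGANTCA), the GC box (GGGCGG), the TATA box (TATAAA) and the CCAAT box (CCAAT).
Areg, chr5:91139349-91139598, plus strand: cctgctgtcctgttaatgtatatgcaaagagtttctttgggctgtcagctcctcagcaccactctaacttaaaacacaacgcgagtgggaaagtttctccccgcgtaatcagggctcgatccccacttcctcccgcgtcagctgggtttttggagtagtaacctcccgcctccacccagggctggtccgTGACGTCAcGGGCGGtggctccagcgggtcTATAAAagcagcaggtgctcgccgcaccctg
Egfr, chr11:16751953-16752202, plus strand: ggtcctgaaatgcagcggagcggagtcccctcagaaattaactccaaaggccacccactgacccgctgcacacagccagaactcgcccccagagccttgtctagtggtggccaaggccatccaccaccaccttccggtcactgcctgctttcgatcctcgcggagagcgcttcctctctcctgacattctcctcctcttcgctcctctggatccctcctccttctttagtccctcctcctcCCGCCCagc
Erbb2, chr11:98412234-98412483, plus strand: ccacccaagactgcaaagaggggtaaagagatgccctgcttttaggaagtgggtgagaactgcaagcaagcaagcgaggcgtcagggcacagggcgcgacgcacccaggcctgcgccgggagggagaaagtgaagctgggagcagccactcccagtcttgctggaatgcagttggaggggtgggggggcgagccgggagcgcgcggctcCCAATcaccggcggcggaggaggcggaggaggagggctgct
Tgfa, chr6:86194972-86195221, plus strand: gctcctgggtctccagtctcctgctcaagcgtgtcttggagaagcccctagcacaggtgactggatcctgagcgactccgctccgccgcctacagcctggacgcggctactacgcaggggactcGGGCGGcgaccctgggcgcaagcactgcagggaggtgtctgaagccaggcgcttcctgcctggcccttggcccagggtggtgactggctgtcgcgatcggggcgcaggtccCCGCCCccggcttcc
Btc, chr5:91402995-91403244, minus strand: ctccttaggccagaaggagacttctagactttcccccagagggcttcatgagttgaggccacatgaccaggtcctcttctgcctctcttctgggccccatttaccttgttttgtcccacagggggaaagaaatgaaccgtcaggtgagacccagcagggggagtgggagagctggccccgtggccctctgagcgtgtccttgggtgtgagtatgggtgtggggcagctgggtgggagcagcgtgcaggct

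The *Areg* window held a CRE that starts 61 bases before the start site, a GC box at 52 bases and a TATA box at 31 bases, whereas neither receptor window nor those of *Tgfa* and *Btc* held a CRE or a TATA box. Among 32851 promoters of this length, 1.55% held the CRE letters, 12.4% the TATA box, 32.7% the GC box and 33.8% the CCAAT box. *Egfr* had a GC box 9 bases before its start, *Tgfa* had GC boxes at 126 and 15 bases before the inner start site, *Erbb2* had a CCAAT box at 41 bases and *Btc* matched none of the 5. The AP-1 letters, in 6.75% of promoters, were in none of the 5 windows. The GC content ran from 57.2% for *Areg* to 69.2% for *Tgfa*.

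*Areg*, *Ereg* and *Btc* are neighbours. In build GRCm38.p6 *Ereg* lies at chr5:91074617-91093649, *Areg* at chr5:91139599-91148432 and *Btc* at chr5:91357261-91402994, with *Epgn*, another EGF-family ligand, before them at chr5:91027517-91035212. *Areg* and *Ereg* did not keep one ratio across the tumors. The count ratio of *Areg* to *Ereg* was 0.401, 0.435 and 0.385 in the control tumors, 0.493, 1.57 and 0.710 with sh2 and 0.557, 0.551 and 0.498 with sh3. All 6 shRNA tumors were above all 3 control tumors. The highest was sh2 tumor 2, with high *Areg* and with *Ereg* (57.2 CPM) below every control tumor. The ratio of *Ereg* to *Hbegf* was lower in all 6 shRNA tumors (0.380 to 0.802) than in the control tumors (0.860 to 0.997). These were the 2 of 36 ratios between members that did not overlap when both shRNAs were set against the control. They were picked out after the values were seen, and both contain *Ereg*. The log2 differences were 0.70 (exact permutation P = 0.0833) and −0.60 (exact permutation P = 0.0476), two-sided and with 6 tumors against 3, and after Benjamini-Hochberg adjustment over the 36 ratios the lowest was 0.889. The share of ratios likewise clear of the control among other gene pairs was not computed.

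The other ligands of the family were scarce. *Nrg1*, a ligand of ERBB3, was at 3.19 ± 0.477 CPM (SD, n = 3 tumors) in the control tumors, with log2 fold changes of −0.03 with sh2 and −0.30 with sh3, and *Nrg2* was at 1.48 CPM with −0.87 and 0.42. *Epgn*, *Nrg3* and *Nrg4* were under the filter on low counts, with at most 14, 1 and 3 counts in any tumor. Of the 7 genes for ligand shedding none passed the test against the control, and their median log2 fold changes were 0.002 with sh2 and −0.003 with sh3. *Adam10*, the sheddase of EGF and betacellulin and the most abundant of this list, measured 207, 235 and 255 CPM in control tumors 1 to 3 and 260, 342 and 267 CPM with sh2; every sh2 tumor was above every control tumor, as for 5.56% of all genes, at a log2 fold change of 0.32 (95% interval −0.03 to 0.67, FDR = 0.999, edgeR), and the value with sh3 was 0.06. On the other side, 2 of the 7 genes were lower in every sh2 tumor than in any control tumor, as were 5.83% of all genes: *Adam12*, which cleaves HB-EGF, at 46.1 to 49.3 CPM against 64.8 to 72.2 CPM, and *Rhbdf2*, named after its values were seen, at a log2 fold change of −0.092. *Adam12* also had the smallest p of this list in the mean of both shRNAs, with a log2 fold change of −0.57 (95% interval −1.27 to 0.14, FDR = 0.982, edgeR).

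Below the receptors, all 22 signal transduction genes were tested and none passed the FDR threshold, with median log2 fold changes of 0.03 with sh2 and with sh3. *Akt1*, the most abundant, was at 478 CPM in the control, 494 CPM with sh2 and 468 CPM with sh3. *Nras* and the MEK kinase gene *Map2k1* had the smallest p values among those not chosen for level, with log2 fold changes of 0.28 and 0.15 in the mean of both shRNAs (FDR = 0.982 for both, edgeR). Between sh3 and sh2, 2 of the 22 had an unadjusted p under 0.05, beside 1057 of 14725 genes tested. Both are adaptors that bind activated receptors, both were named after their values were seen, and they went opposite ways. *Shc1* was lower in every sh3 tumor (173 to 182 CPM) than in any sh2 tumor (209.8 to 305 CPM). *Grb2* was higher in every sh3 tumor (149 to 180 CPM) than in any sh2 tumor (128 to 137 CPM). Their log2 fold changes were −0.48 and 0.32 (FDR = 0.673 for both, edgeR). Of 14725 genes tested, 681 were likewise lower and 812 likewise higher. Against the control, *Shc1* with sh2 was at 0.39 (FDR = 0.999, edgeR), with overlapping tumors. *Grb2* (0.25) and *Map2k1* (0.26) were above every control tumor in all sh3 tumors, as were 6.78% of all genes. *Nras* (0.19) was so in all sh2 tumors, as were 5.56%.

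None of the 12 genes that restrain the receptors passed the threshold. *Errfi1* (MIG6), an inhibitor of EGFR and the most abundant of them, had log2 fold changes of 0.28 with sh2 and 0.11 with sh3. *Cblc*, a ubiquitin ligase for EGFR, measured 68.1, 62.8 and 60.1 CPM in control tumors 1 to 3, 67.7, 110.4 and 104 CPM with sh2 and 66.2, 73.9 and 66.4 CPM with sh3, with a log2 fold change of 0.56 with sh2 (95% interval 0.16 to 0.97, FDR = 0.999, edgeR). Its 2 high tumors were again sh2 tumors 2 and 3, those with the highest epithelial marker sums. *Rnf41* (NRDP1), a ubiquitin ligase for ERBB3, was higher in every shRNA tumor (56.8 to 69.3 CPM) than in any control tumor (50.7 to 56.8 CPM), a pattern that 1.21% of all genes shared, but the difference was small, with a log2 fold change of 0.18 in the mean of both (95% interval −0.04 to 0.40, FDR = 0.982, edgeR), and the lowest shRNA tumor and the highest control tumor were within 0.1 CPM of each other.

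The 16 ERK response genes, which rise when ERK is active, were all tested; 0 passed the FDR threshold. With sh3 1 of the 16 had an unadjusted p under 0.05, a share near the 6.63% of all genes, and with sh2 none had. Their median log2 fold changes were 0.17 with sh2 and 0.11 with sh3. With sh2 10 of 16 were above 0, beside 7625 of 14725 genes tested, and with sh3 13 of 16, beside 8083. The gene with the p under 0.05 was *Dusp6*, an ERK phosphatase, at 205, 212 and 250.1 CPM in control tumors, 292, 267 and 192 CPM with sh2 and 340.5, 258 and 309.7 CPM with sh3. All sh3 tumors were above all control tumors, as for 6.78% of all genes, with a log2 fold change of 0.45 (95% interval 0.03 to 0.86, FDR = 0.753, edgeR; exact permutation P = 0.1). *Etv5* was likewise higher in every sh3 tumor (log2 fold change 0.20) and *Phlda1* lower (−0.23), both named after their values were seen, beside 12.2% of all genes clear of the control in either direction. With sh3 against sh2, 1 of the 16 was higher and 1 lower at an unadjusted p under 0.05. Of 14725 genes tested, 518 and 539 were. The 2 were *Etv5* (log2 fold change 0.40) and *Fos* (−0.96), each with no overlap of tumors (FDR = 0.673 for both, edgeR). Likewise clear were 812 genes upward and 681 downward. *Fos*, also named after its values were seen, was at 0.55 with sh2 and −0.41 with sh3 against the control, with overlapping tumors. *Ccnd1* (cyclin D1), the most abundant of the list, had log2 fold changes of −0.12 with sh2 and 0.09 with sh3, and *Myc* of 0.16 and 0.26. These lists measure mRNA only, not the phosphorylation of ERK. By staining of KLN205 tumor sections, the study reported significantly less phosphorylated ERK where *Tmprss11b* was depleted.

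By Pearson correlation of log2 CPM over the 9 tumors, the genes most like *Erbb2*, the most abundant receptor, were *Omp* (r = 0.96, Spearman's rho = 1.0), *Zfyve1* (r = 0.954) and *Elmo3* (r = 0.952). Those most like *Hbegf*, the most abundant ligand, were *Mtrr* (r = 0.988), *Wdr48* (r = 0.983) and *Zfp180* (r = 0.982). These are the extremes among 14725 genes over 9 tumors that share library depth and cell mixture, and are given as a description.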

How the data were processed

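RNA from 9 KLN205 tumors was measured by stranded poly-A RNA sequencing. Per the submitters' processing notes and the methods, reads were checked with FastQC, aligned to mm10 with STAR 2.5.3a and counted per gene with featureCounts. The name of the deposited table points to the iGenomes gene annotation; its release and the strand setting of the counting are not given in the sources used here. The authors deposited raw counts, TPM, and a CPM signal that equals TMM-scaled CPM within 0.431% and served only to check the counts. A further 10 columns of the authors' edgeR comparisons (log fold change, mean level, likelihood ratio, p-value and FDR) were not used.

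The raw counts were fitted in R 4.3.3 with edgeR 4.0.16: filterByExpr by group, TMM, a robust quasi-likelihood fit of all 9 tumors with group as the only term, and Benjamini-Hochberg adjustment over 14725 genes. Intervals are 95% intervals of the fit. Single values were also compared by exact two-sided permutation of tumors on log2 CPM (prior count of 2), whose smallest P is 0.1 for 3 against 3 and 0.0119 for 6 against 3. The fit was tested on simulated counts. Python 3.11.15 served for tables and plots (pandas 2.3.3, numpy 2.4.6, scipy 1.17.1, matplotlib 3.10.9), and DESeq2 1.42.0 was an alternative. Total counts per tumor ranged from 20653219 to 24047784. The floor of 3 counts covers counting error only. Of the symbols, 18299 of 19481 were matched in RefSeq, which supplied coordinates and promoters.

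The family members, the pathway lists and the marker lists were chosen with earlier results of these data known. The text names all members, *Tmprss11b*, the most abundant gene of each pathway list and the 2 genes with the smallest p in the mean of both shRNAs, and the 3 genes most correlated with the most abundant receptor and ligand. Tumors sharing a replicate number were not taken as pairs. The alternatives were DESeq2's size factors, DESeq2's Wald test, edgeR's likelihood ratio test with current and earlier dispersion functions, no filter, a minimum of 10 counts in each tumor, a fit of the compared groups alone, the replicate number as a block, each tumor left out, and a scale of epithelial markers added after the data were seen. Other data of the study were not analysed here.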

Additional observations from a re-analysis of the deposited data

How the results depend on the processing

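No member of the family passed the FDR threshold under any setting tried. Of 291 member values under settings other than leaving out a tumor, 286 kept their direction. The other 5 reversed on the scale of epithelial markers: −0.039 (sh2) and −0.11 (mean of both shRNAs) for *Egfr* against the control, −0.11 and −0.13 for *Erbb2*, and −0.18 in the mean of both for *Erbb3*. That scale was run for the 3 receptors alone, in the 4 comparisons, and not for the ligands. Counts of genes past the threshold, 0 in the quasi-likelihood test, did depend on the test. With DESeq2's Wald test they were 2 (sh2), 41 (sh3), 9 (mean of both) and 48 (sh3 against sh2). With edgeR's likelihood ratio test they were 8 (sh3), 8 (mean of both) and 14 (sh3 against sh2), and with its earlier dispersion functions and no filter 15, 12, 63 and 24. *Tmprss11bnl* passed in the mean of both under these 3 tests. For the ligand shedding list with sh3 the mean was −0.15. The cause of these differences was not tested.

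Leaving out 1 tumor at a time reversed 27 of 324 member values. Against the control with sh2, the log2 fold change ranged from −0.13 to 0.80 for *Egfr* and from −0.72 to 0.31 for *Egf*. With sh3 it ranged from −0.30 to 0.62 for *Areg*, −0.64 to 0.23 for *Ereg*, −0.28 to 0.75 for *Hbegf*, −0.33 to 0.32 for *Tgfa*, −0.24 to 0.26 for *Btc* and −0.89 to 0.15 for *Egf*. In the mean of both it ranged from −0.18 to 0.29 for *Egfr*, −0.049 to 0.19 for *Erbb2*, −0.10 to 0.13 for *Erbb3*, −0.026 to 0.30 for *Tgfa* and −0.80 to 0.23 for *Egf*. Between sh3 and sh2 it ranged from −1.13 to 0.067 for *Areg*, −0.35 to 0.52 for *Ereg*, −0.74 to 0.29 for *Hbegf* and −0.60 to 0.052 for *Tgfa*. Of the reversals, 7 came without sh3 tumor 1, 6 without sh2 tumor 2, 4 without control tumor 3, 3 each without control tumor 2 and sh3 tumor 2, 2 without sh3 tumor 3, and 1 each without control tumor 1 and sh2 tumor 3. Among the other genes, the ranges that crossed 0 were −0.26 to 0.13 for *Nrg1* and −0.039 to 0.12 for *Akt1* with sh2, −0.06 to 0.12 for *Adam10*, −0.13 to 0.022 for *Akt1*, −0.017 to 0.21 for *Errfi1*, −0.038 to 0.23 for *Ccnd1* and −0.015 to 0.47 for *Myc* with sh3, and −0.53 to 0.077 for *Nrg2*, −0.086 to 0.069 for *Akt1* and −0.077 to 0.092 for *Ccnd1* in the mean of both.

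Tumors with the same replicate number did not deviate together (mean r = −0.0992 over 9 pairs, against 0.0519 for other pairs, and 0 of 9 tumors was closest to its own number). With the replicate block 0 genes passed, and the *Erbb3* difference between sh3 and sh2 was −0.79. Levels by CPM over gene length were not run, since the deposited table has no lengths. With 3 tumors a group the 95% intervals of the ligands are wide, and changes of up to about 1 on the log2 scale lie within most of them.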

Other observations

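The spread within groups differed between the control and the shRNA tumors. For 7 of 9 members the range of log2 CPM was wider among the 3 sh3 tumors than among the 3 control tumors, the exceptions being *Erbb2* and *Egf*, and for 7 of 9 it was wider among the sh2 tumors, the exceptions being *Btc* and *Egf*. Of all genes tested, 75.1% had a wider range with sh3 and 59.0% with sh2, so the share among the members was close to the background for sh3. *Hbegf* differed 1.34-fold between the highest and lowest control tumor and 3.51-fold between the sh3 tumors, and *Egfr* 1.14-fold and 2.92-fold between control and sh2 tumors. This comparison was chosen after the values were seen and was not tested.

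The SD of log2 CPM within groups was 0.71 for *Areg*, 0.65 for *Hbegf* and 0.58 for *Ereg*, and 0.25 for *Erbb2*, beside a median of 0.29 over all genes tested. By its SD over the 9 tumors *Areg* stood at percentile 86.1 of the genes tested and *Erbb2* at 50.4.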
